A study of Homo sapiens with 8 samples.

Results

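The DIP2 family (disco-interacting protein 2 homologues) has 3 human members, DIP2A, DIP2B and DIP2C. All RFX7 peaks within 10 kb of the body of any of these genes were taken, in the peak list of Nutlin-3a-treated cells and in that of control cells. A single peak met this rule, at the start of DIP2A, 1 of 1234 peaks in the Nutlin-3a list. The DMSO list held 0 such peaks of 556, which allows a share of up to 0.54% (3 counts, counting error only). The family was selected on measured values: of all fold enrichments in the Nutlin-3a list, that of the DIP2A peak is the highest. Its size is therefore a description and carries no test.

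RFX7 binding had been mapped by chromatin immunoprecipitation and sequencing (ChIP-seq) in RPE-1, an established human line of retinal pigment epithelial cells. Cells were treated for 24 h with 10 µM Nutlin-3a, which blocks the MDM2-p53 interaction and stabilises p53, or with the solvent DMSO. Each of the 4 groups, RFX7 ChIP and input chromatin for either treatment, had 2 samples. The values come from 1 list of peaks for each treatment. They have no replicate error, and the read depth behind a peak is unknown.

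RFX7 belongs to the regulatory factor X family, winged-helix transcription factors that bind the X-box, an inverted repeat whose arms are called half-sites. RFX7 is known as a factor that p53 activates and that switches on growth-restraining genes. At MHC class II promoters a related RFX complex binds beside a CCAAT box, the element recognised by NF-Y. DIP2 proteins carry an N-terminal DMAP1-binding region and domains related to adenylate-forming enzymes, which activate fatty acids and similar substrates. DIP2A has been described as a receptor for the secreted glycoprotein FSTL1, and a repeat expansion in DIP2B underlies a chromosomal fragile site.

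The sequences just upstream of the 3 gene starts are given below, and their bearing on the RFX7 calls was not tested. They are the 250 bases before each annotated start, 5′ to 3′ on the strand of the gene, from RefSeq on GRCh38.p14. Capitals mark an RFX half-site (GTTGCC or GTTGCT, or their complements GGCAAC and AGCAAC) or a CCAAT box (CCAAT or ATTGG). DIP2A is on the plus strand of chromosome 21 (chr21:46458641-46458890), DIP2B on the plus strand of chromosome 12 (chr12:50504735-50504984) and DIP2C on the minus strand of chromosome 10 (chr10:689669-689918).
DIP2A: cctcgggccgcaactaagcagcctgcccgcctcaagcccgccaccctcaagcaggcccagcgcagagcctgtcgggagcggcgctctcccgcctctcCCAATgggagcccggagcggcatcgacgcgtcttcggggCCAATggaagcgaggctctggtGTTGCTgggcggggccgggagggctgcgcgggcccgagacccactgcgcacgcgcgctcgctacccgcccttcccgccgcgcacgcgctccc
DIP2B: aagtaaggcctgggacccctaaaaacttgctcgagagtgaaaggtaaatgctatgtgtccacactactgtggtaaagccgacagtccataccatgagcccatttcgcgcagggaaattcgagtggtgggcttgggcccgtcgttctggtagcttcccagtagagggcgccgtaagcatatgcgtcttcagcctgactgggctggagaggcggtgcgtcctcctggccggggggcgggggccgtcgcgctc
DIP2C: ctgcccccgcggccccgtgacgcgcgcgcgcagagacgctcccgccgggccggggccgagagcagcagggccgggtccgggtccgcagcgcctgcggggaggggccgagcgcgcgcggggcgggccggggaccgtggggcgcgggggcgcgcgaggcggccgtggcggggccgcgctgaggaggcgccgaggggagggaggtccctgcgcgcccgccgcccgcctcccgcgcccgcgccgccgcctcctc

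The DIP2A sequence holds 1 half-site of the T form, GTTGCT, and 2 CCAAT boxes, all on the strand of the gene. Those of DIP2B and DIP2C hold neither element.

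The peak at DIP2A ran from 46458277 to 46459096 on chromosome 21 (hg38), a width of 820 bp. Its fold enrichment was 23.8 and its −log10 p 262, and the authors' deposited table gave it a −log10 q of 256. The medians of the Nutlin-3a list were 2.77-fold, a −log10 p of 23.8 and a width of 161 bp, so the peak had 8.61 times the median fold enrichment. Fold enrichment, −log10 p and −log10 q are the authors' values for each peak. What the fold enrichment is relative to is not given in the sources used here.

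By fold enrichment the next peak was only slightly lower, the DIP2A value being 1.07 times as large. Its summit lay 26 bp outside the body of UBB, a polyubiquitin gene, and it was at 22.2-fold and a −log10 p of 320. The third, with its summit 8712 bp from YWHAG, a 14-3-3 protein gene, was at 19.8-fold, and the fourth, with its summit 8470 bp from the p53-induced cell death gene BBC3, at 17.3-fold. The fifth, at 15.7-fold, had its summit inside the body of TTC8, a gene of the ciliary BBSome complex. It covered an annotated TTC8 start, with the summit 13 bp upstream of that start. Of the 10 peaks with the largest fold enrichment, DIP2A included, 0 overlapped a DMSO peak by at least 1 bp, against 337 of all 1234 Nutlin-3a peaks (27.3%). These 10 were picked by the measure that chose the DIP2A peak, so the contrast is a description only.

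The DIP2A peak was not the first by the other measures. It ranked 30 of 1234 by −log10 p and 23 by width, and 30 by −log10 q in the authors' deposited table. Of the 29 peaks with a larger −log10 p, 27 had a fold enrichment below 3, and their median was 1.88-fold. The other two were those at UBB and at PNRC2 (6.69-fold, −log10 p 285). Of the 22 wider peaks, fold enrichment ranged from 1.27 to 22.2.

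The 3 peaks on either side in −log10 p differed from it in fold enrichment and in location. Those at the nuclear receptor coactivator genes PNRC2 and PNRC1 were at 6.69-fold and 5.37-fold, and a peak with its summit 1322 bp from the small GTPase gene RAP2A was at 3.76-fold. The remaining 3 were on chromosome 16 (2.22-fold and 2.86-fold) and chromosome 5 (2.21-fold), with LOC124903767, SHCBP1 and EMB as the closest protein-coding genes, at 179187 to 786147 bp from the summit. The DIP2A peak thus stood at the far right of the plot of fold enrichment against −log10 p, beside the UBB peak.

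**Figure D1:**
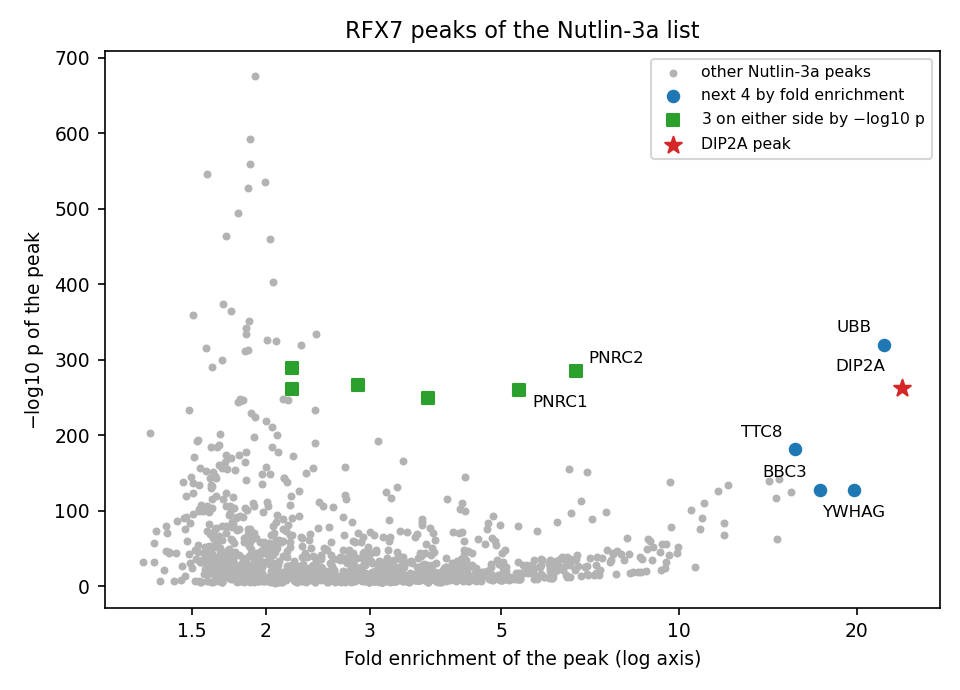
Each point is 1 of the 1234 Nutlin-3a peaks, with its fold enrichment on a log axis and its −log10 p, both as deposited. Names give the nearest protein-coding gene of a marked peak; the DIP2A peak (star) is farthest right at 23.8-fold, while 29 peaks lie above it in −log10 p.

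The peak covered the starts of a divergent gene pair. DIP2A (gene ID 23181) spans 46458891 to 46583871 and is read rightward. The long non-coding RNA gene LOC124905046 spans 46448411 to 46458713 and is read leftward from a start 178 bp upstream of that of DIP2A. The peak reached from 614 bp upstream to 205 bp downstream of the DIP2A start. Its summit, at 46458519, lay 372 bp upstream of the DIP2A start and 194 bp inside LOC124905046, while the middle of the peak lay 205 bp upstream of the DIP2A start. The summit was thus closer to the start of the non-coding gene than to that of DIP2A. No exon annotation was used.

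**Figure D2:**
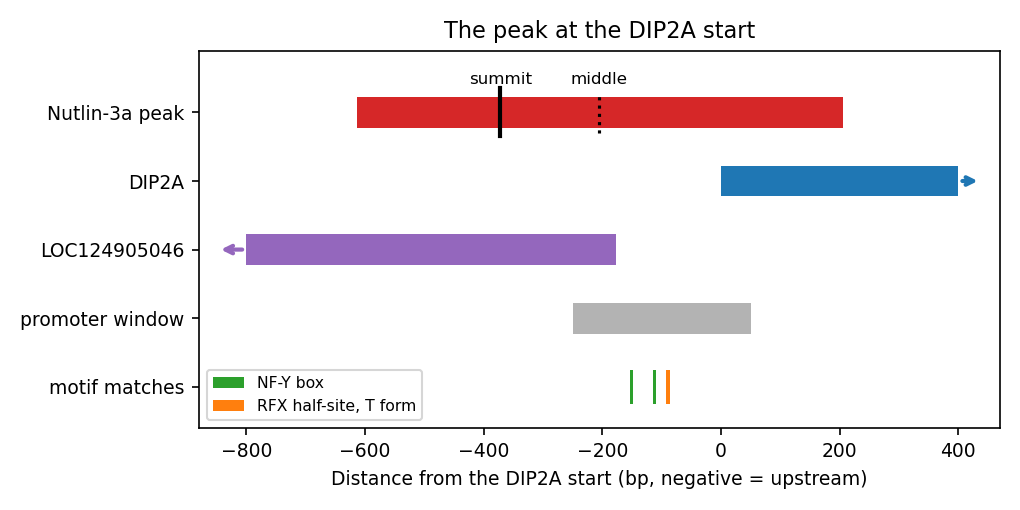
The peak, both genes (cut at the plot's edges, arrows show the direction of transcription), the 300 bp promoter window of DIP2A and the motif matches within it are drawn against the distance in bp from the DIP2A start. The summit is at 372 bp upstream, inside LOC124905046, and the half-site and both NF-Y boxes lie between summit and DIP2A start.

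Peaks over gene starts were compared with it. In the Nutlin-3a list, 62 peaks contained at least 1 start from the RefSeq promoter table, and 55 of them that of a protein-coding gene. The table is not complete, so these counts are lower limits. Divergent starts lay within 9 of the 62 peaks (14.5%, 95% Wilson interval 7.83 to 25.3%), among them those at RFX5, which codes for a subunit of the MHC class II RFX complex, and at DDIT4, a stress-induced inhibitor of mTOR signalling. These 2 were named after their values were seen. Among the 55 peaks the DIP2A peak ranked 1 by fold enrichment, which its choice fixed in advance, and 2 by −log10 p, after PNRC2. The UBB peak, with a larger −log10 p of 320, was not among the 55. The UBB starts in the promoter table lay just outside it, although the UBB body came within 26 bp of its summit. The median of the 55 was 5.1-fold.

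Its summit was farther upstream than most. The median summit of the 55 peaks lay 54 bp upstream of the nearest protein-coding start inside the peak, with a range from 516 bp upstream to 575 bp downstream. Only 3 summits were at least 372 bp upstream, those of PNRC2 (516 bp), KDM4A (433 bp) and DIP2A. Measured from the middle of the peak the distance at DIP2A was 205 bp, and 5 of the 55 peaks were at least that far from the start in either direction.

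**Figure D3:**
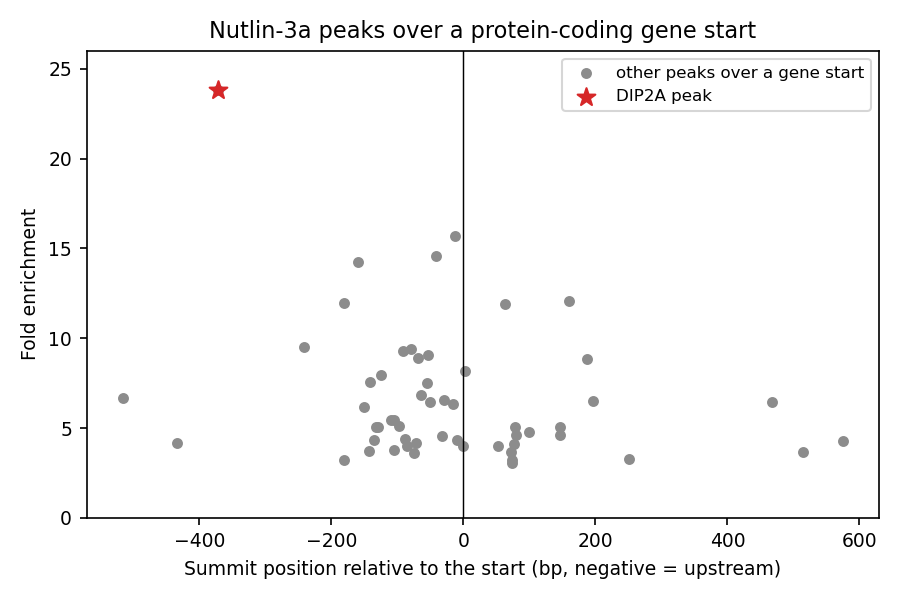
Each point is 1 of the 55 Nutlin-3a peaks over a protein-coding start, with the summit position in bp relative to that start (negative is upstream) and its fold enrichment. The DIP2A peak (star) is at 372 bp upstream and 23.8-fold; the median of all 55 is 54 bp upstream, and 5 other summits lie farther from the start, PNRC2 and KDM4A upstream and 3 downstream.

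No other protein-coding gene within 250 kb of the peak had a peak within 10 kb of its body. Within 10 kb of the peak lay only DIP2A, LOC124905046 and DIP2A-IT1, a non-coding gene inside DIP2A that begins 3375 bp past the peak. The nearest other protein-coding gene was PCNT, which codes for the centrosome scaffold pericentrin and whose body ended 12508 bp to the left. Its start, however, was 134 kb away. Farther left were LOC128092249 (132 kb), C21orf58 (134 kb), YBEY (145 kb), MCM3AP (172 kb), which codes for an mRNA export factor, and LSS (230 kb), the lanosterol synthase gene. To the right were S100B (140 kb), a calcium-binding protein gene, and PRMT2 (177 kb), an arginine methyltransferase gene. For each of these 8 genes, 0 peaks of either list lay within 10 kb of the body. Over all protein-coding genes, 1.35% had a Nutlin-3a peak and 0.0649% a DMSO peak that close, so counts of 0 do not stand apart.

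The peak was isolated on its chromosome. The nearest other Nutlin-3a peak was 12.9 Mb away and the nearest DMSO peak 35.6 Mb away. Of the other 37 Nutlin-3a peaks on chromosome 21, 36 ended before position 15000000, as did all 62 DMSO peaks. Fold enrichments of the 37 and the 62 had medians of 2.36 and 2.93, with maxima of 14.7 and 7.56. In distance to the nearest other peak of its list, the DIP2A peak ranked 22 of 1234, and the median peak had another within 1730 bp. The DMSO list holds no signal value for this region, only the absence of a call.

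DIP2B and DIP2C had no peak nearby in either list. The body of DIP2B (gene ID 57609, chromosome 12, 50504985 to 50748657) was 2.33 Mb from the nearest Nutlin-3a peak and 13.2 Mb from the nearest DMSO peak. That Nutlin-3a peak (53079437 to 53079781, 6.06-fold, −log10 p 33.7) had its summit 207 bp from SPRYD3. The body of DIP2C (gene ID 22982, chromosome 10, 274201 to 689668) was 14.1 Mb from the nearest Nutlin-3a peak and 37.8 Mb from the nearest DMSO peak. That Nutlin-3a peak (14837873 to 14838191, 4.08-fold, −log10 p 9.87) lay over the start of CDNF, a neurotrophic factor gene, with its summit 77 bp inside the gene. SPRYD3 and CDNF were named after the distances were seen.

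The genes flanking the paralogues also lacked peaks. DIP2B lies between LARP4, an RNA-binding protein gene 24981 bp away, and ATF1, a CREB-family transcription factor gene 14802 bp away, whose nearest Nutlin-3a peaks were 2.6 and 2.26 Mb off. DIP2C lies between ZMYND11 (19564 bp), a reader of histone methylation, and LARP4B (117246 bp), whose nearest Nutlin-3a peaks were 14.6 and 13.8 Mb off. The 3 family members thus lie on 3 chromosomes, and only the DIP2A neighbourhood held a peak. Since only 1.35% of all protein-coding genes had a Nutlin-3a peak within 10 kb, lacking one does not set the paralogues or their flanking genes apart.

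**Figure D4:**
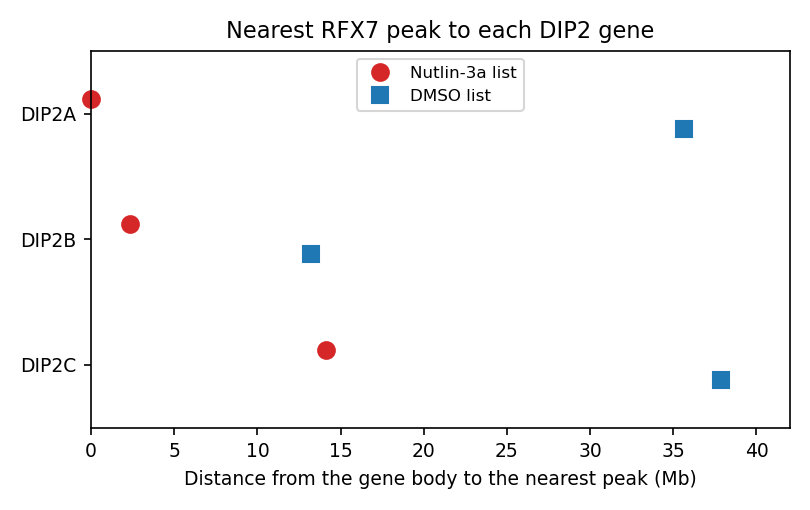
For each DIP2 gene the plot gives the distance in Mb from the gene body to the nearest peak of the Nutlin-3a list (circles) and of the DMSO list (squares). Only DIP2A has a peak at 0 Mb, in the Nutlin-3a list; the nearest DMSO peaks are 13.2 to 37.8 Mb away.

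Over all 20037 protein-coding genes, 270 had a Nutlin-3a peak within 10 kb of the body (1.35%, 95% Wilson interval 1.2 to 1.52%) and 13 a DMSO peak (0.0649%, 0.0379 to 0.111%). The family had 1 of 3 genes with a Nutlin-3a peak and 0 of 3 with a DMSO peak. Since the family was chosen for this peak, nothing is read from that count.

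Genes tied to DIP2 proteins by partnership or domain had no peak within 10 kb. One list held FSTL1, the ligand described for DIP2A, DMAP1, a chromatin protein, CTTN, the actin regulator cortactin, and DNMT1 and GNPTAB, which share the DMAP1-binding region. Of these 5 genes 0 had a peak in either list, and the nearest Nutlin-3a peak to any of them was 0.374 Mb from DNMT1. The other list held 27 adenylate-forming enzymes of the ACSL, ACSM, ACSS, ACSF, ACSBG and SLC27A groups with AACS and AASDH. Of these, 0 had a peak in either list, and their median distance to a Nutlin-3a peak was 3.55 Mb. The closest was SLC27A3, a fatty acid transport protein gene, 47.3 kb from a 5.47-fold peak over the start of INTS3. Beside the background of 1.35%, counts of 0 among 5 and 27 genes do not stand apart.

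Motif matches were counted in 300 bp windows, from 250 bp before to 50 bp after a start, on both strands. RefSeq gave 34943 distinct windows, and 39 of them lay wholly inside a Nutlin-3a peak, spread over 33 peaks. No window lay wholly inside a DMSO peak. The windows of DIP2A and LOC124905046 were both among the 39 and share 277 bases on opposite strands. Together they hold 323 of the 820 bases of the peak (39.4%), and the summit lies 122 bp outside the DIP2A window, so the sequence beneath it was not read here.

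In the DIP2A window the half-site GTTGCT began 92 bp before the start, and the 2 CCAAT boxes began 114 and 153 bp before it. The C form of the half-site, GTTGCC, was absent from all 3 family windows. It occurred in 12.2% of all windows (95% Wilson interval 11.9 to 12.5%) and in 14 of the 39 windows inside peaks (35.9%, 22.7 to 51.6%). The T form occurred in 12.8% of all windows and in 23 of 39 (59%, 43.4 to 72.9%). Either form occurred in 23.1% of all windows (22.7 to 23.6%) and in 34 of 39 (87.2%, 73.3 to 94.4%), or in 29 of the 33 peaks. The DIP2A window was thus among the majority of windows inside peaks that held a half-site.

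CCAAT, counted on both strands, occurred in 34.6% of all windows and in 31 of 39 inside peaks (79.5%, 64.5 to 89.2%). Both a half-site of either form and CCAAT were found in 8.51% of all windows and in 27 of the 39 (69.2%, 53.6 to 81.4%), DIP2A among them. Neither was found in 50.7% of all windows, including those of DIP2B and DIP2C, and in 1 of the 39, that of CCNG2. TGACG, part of the cyclic AMP response element, occurred in 24.5% of all windows and in 14 of 39 (35.9%), and of the family windows only in that of DIP2C, beginning 233 bp before the start. The inverted pair of GTTNCC and GGNAAC with 0 to 3 bases between occurred in 0.738% of all windows, in 0 of the 39 and in 0 of the 3 family windows. GTTNCC leaves out the T form and was itself absent from the family windows, so the family count of pairs was fixed. A match describes these letters only, and windows of one peak overlap.

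**Figure D5:**
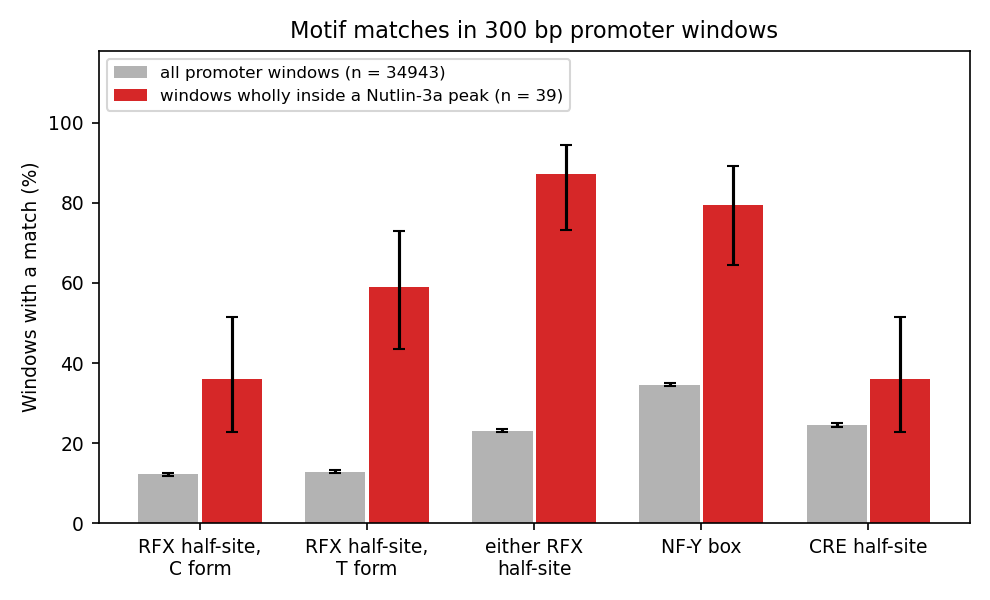
Bars give the percentage of 300 bp promoter windows with at least 1 match on either strand, for all 34943 windows (grey) and for the 39 wholly inside a Nutlin-3a peak (red), with 95% Wilson intervals. Either RFX half-site was present in 23.1% and 87.2%, and the NF-Y box, CCAAT, in 34.6% and 79.5%.

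The order and spacing of the elements at DIP2A were found in few windows. The second CCAAT box and the half-site were on the same strand with 17 bases between them. The same order on 1 strand with 15 to 20 bases between occurred in 62 of all 34943 windows (0.177%, 0.138 to 0.227%) and in 4 of the 39 (10.3%, 4.06 to 23.6%). These 4 belonged to 3 peaks, at DIP2A with LOC124905046 (17 bases), PNRC2 (19 bases) and CKS2 (17 bases), a cyclin-dependent kinase subunit gene. With up to 30 bases between, the counts were 241 of all windows (0.69%) and 7 of the 39 (17.9%). These spacings were chosen after the DIP2A sequence and the 39 windows had been read, so the shares are descriptions.

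Other leading peaks shared these elements with DIP2A in part. The window of FPASL, the non-coding gene at the peak near YWHAG, held 1 half-site and 2 CCAAT boxes, the same counts as at DIP2A. It differed in spacing, with 9 bases between the nearest pair. That of TTC8 held 1 half-site and 0 CCAAT boxes. The 2 windows of UBB, which lay only partly inside the second peak, each held 0 half-sites and 1 CCAAT box. For the fourth peak, near BBC3, no promoter window was read.

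Base composition also differed between these windows. The DIP2A window had 76.7% G+C and an observed to expected CpG ratio of 0.98, against 62% and 0.89 for DIP2B and 86% and 1.07 for DIP2C. The medians were 58.7% and 0.58 over all windows and 67.3% and 0.87 over the 39 inside peaks. DIP2A thus lay between its paralogues, at the 93.6th percentile of all windows in G+C content. The part of base composition in the motif shares was not tested.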

How the data were processed

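RFX7 ChIP and input samples of RPE-1 cells were grouped by their titles. Per the submitters' processing notes, the tools were bcl2fastq 2.20.0.422, Trimmomatic 0.39, FastQC 0.11.9, cutadapt 2.10, SAMtools 1.10, Picard, MACS2 2.2.7.1 and bedtools 2.29.2, on hg38. The aligner, the control and how replicates were combined are not given in the sources used here. The 2 lists deposited by the authors give, for each peak, a score, a fold enrichment (a ratio), −log10 p and −log10 q. Read depth is unknown, and input samples had no values here.

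Genes and 300 bp promoter sequences came from RefSeq tables of GRCh38.p14, the assembly that hg38 names. Distances were measured between peak and gene body, or from the summit. Named genes are the family, genes within 250 kb of the peak (any gene type within 10 kb), flanking genes of the paralogues, the next 4 peaks by fold enrichment and 3 on either side by −log10 p; other genes were named after their values were seen. Members and lists were chosen with earlier results of these data known. No test was run. Wilson intervals (95%) cover counting error only. Python 3.11.15 and pandas 2.3.3 were used; distance and motif code was tested on simulated data.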

Additional observations from a re-analysis of the deposited data

How the results depend on the processing

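No paired analysis was possible because the lists hold 1 value per peak for a whole treatment, and for the same reason no sample could be left out. The family count stayed at 1 Nutlin-3a and 0 DMSO peaks with windows of 50 and 100 kb. A window of 1 kb and −log10 q of at least 5 gave the same counts. Those 2 settings could not change them, since the DIP2A peak overlaps the gene body and has a −log10 q of 256. The rank of the DIP2A peak by fold enrichment was 1 among peaks at least 300 bp wide and with −log10 q of at least 5. The peak was chosen as the largest and passes both limits, so this rank could not change. The rank was 30 by −log10 p, 30 by −log10 q and 23 by width, and 2 by −log10 p among peaks over a protein-coding start, a setting chosen after seeing the data. The UBB peak, larger in −log10 p, was outside that last setting. Measured from the middle of the peak, the distance to the DIP2A start was 205 bp in place of 372 bp. The share of protein-coding genes with a Nutlin-3a peak was 1.03%, 2.85% and 4.49% with windows of 1, 50 and 100 kb, and 1.09% for peaks with −log10 q of at least 5. For DMSO the share was 0.205% and 0.319% at 50 and 100 kb. Promoter windows with a half-site were 23.1% with the T form added, 45.4% for GTTNCC, which leaves out the T form, and 0.738% for the inverted pair. GTTNCC occurred in 20 of the 39 windows inside peaks (51.3%, 36.2 to 66.1%), close to its share of all windows. Family windows with a half-site went from 0 to 1, that of DIP2A, with the T form added. At 50 and 100 kb, 1 adenylate-forming enzyme gene, SLC27A3, had a Nutlin-3a peak. The unread sequence beneath the summit and the single list per treatment limit what can be said.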
